A study of Mus musculus with 12 samples.

Results

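The genes described here make S-adenosylmethionine, spend it on small molecules or recover what is left of it, and all 10 were given by name: Mat1a, Mat2a, Ahcy, Bhmt, Cbs, Gnmt, Pemt, Gamt, Nnmt and Inmt. They are 10 of the 31253 gene symbols listed for each library, and all 10 passed the filter on low values that left 12120 genes for testing. Inmt was chosen by its TPM in the knock-in libraries, which was low after diethylnitrosamine, so its values in every comparison that uses knock-in libraries are a description without a test. The other 9 were chosen for what they do in liver, with earlier results of these data known.

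Liver RNA of male C57BL6 mice was sequenced in 12 libraries, 3 in each of 4 groups. S302A_DEN mice carried the CUGBP1 s302a knock-in and had been injected at 3 weeks with 50 µg per g of diethylnitrosamine (DEN), a liver carcinogen whose metabolites alkylate DNA. S302A_Ctrl mice carried the knock-in and were untreated, WT_DEN mice were wild type and had received the same DEN dose, and WT_Ctrl mice were wild type and untreated. CUGBP1, encoded by Celf1, is an RNA-binding protein, and the labels name no transgene, Cre or number of founder lines behind the knock-in. Livers were collected 30 to 38 weeks after the injection age, when the mice were 33 to 41 weeks old. The labels do not say that the untreated mice received a vehicle, whether tumour tissue was left out, or that every library came from its own mouse. The p-values therefore describe the scatter among these libraries, which may be technical.

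S-adenosylmethionine is the methyl donor of most methylation reactions, and the liver makes most of the body's supply. Methionine adenosyltransferase builds it from methionine and ATP, methyltransferases pass its methyl group to an acceptor, and the S-adenosylhomocysteine that remains is split into adenosine and homocysteine. Homocysteine is either methylated back to methionine or drawn off towards cysteine. In adult liver the Mat1a product is the main methionine adenosyltransferase, whereas the Mat2a product serves most other tissues and dividing cells.

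Levels are given in TPM, the deposited length-adjusted transcript abundance, so that levels of different genes can be set side by side. The sequencing depth behind a TPM value is unknown. The lowest value in the tables is 1 TPM, so a value of 1 means 1 or less. One library was unlike the rest, S302A_DEN replicate 3, with 13083 genes over the floor (10839 to 11653 elsewhere) and 1028 TPM in the sum of 8 tumour and fetal liver markers. Of 12 hepatocyte markers 11 were measured and none stayed at the floor throughout a group. They summed to 55914 to 66567 TPM in S302A_DEN and 48782 to 61930 in S302A_Ctrl, and to 78762 to 95196 in WT_DEN and 44127 to 70893 in WT_Ctrl.

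The upstream sequences of the member chosen for its response and of the members with the lowest log2 difference between S302A_DEN and WT_DEN among the other 9, Gnmt and Ahcy, are shown because the results turn on these genes. They come from RefSeq (build GRCm38.p6, which shares coordinates with mm10), run 5′ to 3′ on the gene's strand and stop where RefSeq or GENCODE M21 starts the transcript. Capitals mark matches on either strand to the TATA box TATAAA, to the CAAT box, searched as CCAAT, or to the GC box, searched as GGGCGG. The E-box CACGTG was searched as well and was not among these letters. The same held for the D-box, searched as TTATGTAA, and for the C/EBP motif, searched as TTGCGCAA. The Inmt window is chr6:55175044-55175240 on the minus strand, the Gnmt window is chr17:46729169-46729415 on the minus strand, and the Ahcy window is chr2:155074498-155074747 on the minus strand.
Inmt: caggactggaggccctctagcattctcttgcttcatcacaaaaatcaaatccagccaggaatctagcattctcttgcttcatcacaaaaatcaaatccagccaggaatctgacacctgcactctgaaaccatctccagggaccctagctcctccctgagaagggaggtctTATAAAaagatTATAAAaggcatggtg
Gnmt: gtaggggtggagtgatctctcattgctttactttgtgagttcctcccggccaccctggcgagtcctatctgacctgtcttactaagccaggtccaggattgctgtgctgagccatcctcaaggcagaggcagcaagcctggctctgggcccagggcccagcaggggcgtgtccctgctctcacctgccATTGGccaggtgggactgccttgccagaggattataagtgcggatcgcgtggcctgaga
Ahcy: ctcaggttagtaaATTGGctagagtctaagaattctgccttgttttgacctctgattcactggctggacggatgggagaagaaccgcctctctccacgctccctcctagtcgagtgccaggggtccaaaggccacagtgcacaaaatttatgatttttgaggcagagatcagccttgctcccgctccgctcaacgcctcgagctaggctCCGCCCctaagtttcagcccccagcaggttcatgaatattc
TATAAA stood at 2 places in the Inmt window, and 9.05% of the 32851 mouse windows of the same length (197 bases) held it. Those windows were the far 197 of the 250 bases upstream of each RefSeq start and so stopped short of it. Of the full 250-base windows, 12.4% held TATAAA. A stretch of 46 bases occurred in immediate succession in the Inmt window, starting at bases 16 and 62. Gnmt had 1 match to CCAAT, which 33.6% of windows of its length held. Ahcy had 1 match to CCAAT (33.8% of windows) and 1 to GGGCGG (32.7%). The table held upstream sequence for 8 of the 10 genes. Nnmt and Mat1a had no entry.

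The levels of the 10 genes spanned a wide range. Bhmt and Gnmt were the most abundant, with group means of 1084 to 2617 TPM and 890 to 2363 TPM. Mat1a averaged 453 to 1122 TPM and Ahcy 546 to 1260.1 TPM over the groups, and Inmt, Pemt, Cbs and Gamt averaged 125 to 688, 302.2 to 476, 187 to 214 and 135 to 293 TPM. Nnmt averaged 33.1 to 103 TPM and Mat2a 37.5 to 47.9 TPM, which made them the lowest of the set in all 4 groups. Together the 10 genes held 3844 to 5461 TPM in S302A_DEN and 4384 to 5396 TPM in S302A_Ctrl, and 7761 to 10128 TPM in WT_DEN and 4230.5 to 6677 TPM in WT_Ctrl. Only the WT_DEN libraries lay apart from the rest in this sum, as the plot of each gene by group also shows.

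**Figure D1:**
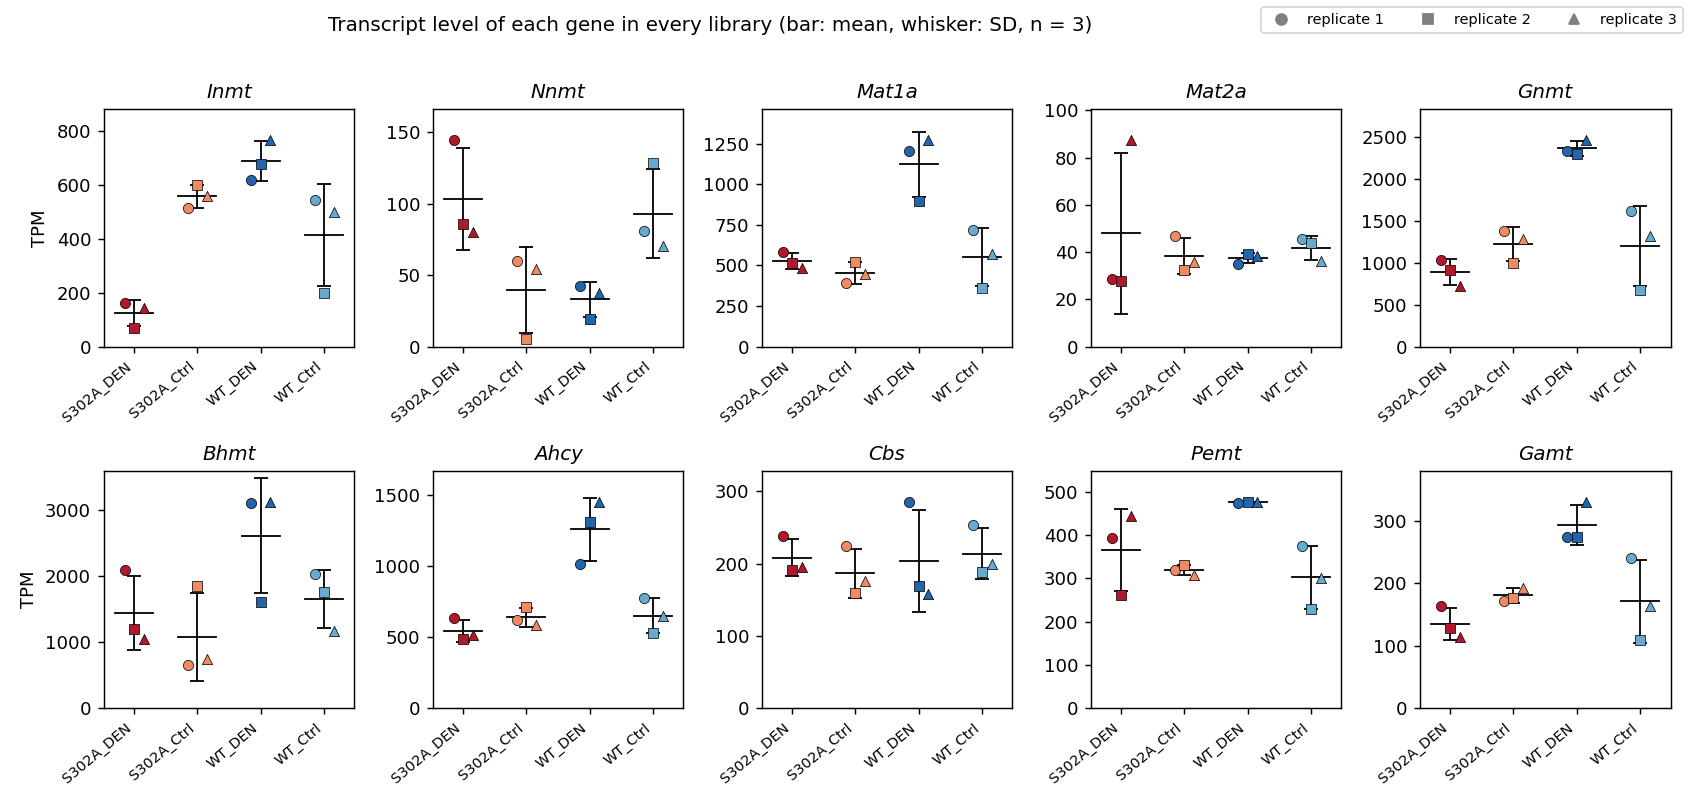
Transcript level in TPM (linear axis from 0, one panel per gene) in the 3 libraries of each group; points are libraries, shaped by replicate, bars are means and whiskers SD. Inmt, Mat1a, Gnmt, Ahcy, Pemt and Gamt stood highest in all 3 WT_DEN libraries. Inmt was below 161 TPM in all 3 S302A_DEN libraries and at 198 TPM or more in all others.

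Mat1a encodes the catalytic subunit of the liver methionine adenosyltransferase (ENSMUSG00000037798; chromosome 14, 41105035 to 41124412, plus strand, GRCm38). It stood at 581, 516 and 485 TPM in S302A_DEN replicates 1 to 3, with 390, 522 and 449 TPM in S302A_Ctrl. In wild type it stood at 1202, 894 and 1271 TPM after DEN and at 719, 363 and 567 TPM in WT_Ctrl. The WT_DEN libraries lay above all 9 others, and the knock-in groups overlapped. The log2 difference between S302A_DEN and WT_DEN was -1.08 ± 0.25 (SE; limma adjusted p = 0.106), that of DEN in wild type 1.07 ± 0.25 (adjusted p = 0.202) and that of DEN in the knock-in 0.22 ± 0.25 (adjusted p = 0.613). None passed the threshold of 0.05. With S302A_DEN replicate 3 left out the first was -1.02 (adjusted p = 0.0485) and the second 1.07 (adjusted p = 0.0466), so both then passed.

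Mat2a (ENSMUSG00000053907; chromosome 6, 72432799 to 72439558, minus strand) measured 28.5, 27.7 and 87.4 TPM in S302A_DEN, with 46.7, 32.6 and 35.7 TPM in S302A_Ctrl. It stood at 34.9, 39.3 and 38.2 TPM in WT_DEN and at 45.7, 43.7 and 36.1 TPM in WT_Ctrl. S302A_DEN replicate 3 was the highest of the 12 libraries and the other S302A_DEN replicates were the lowest. The log2 difference of DEN in the knock-in was 0.12 with a 95% interval from -0.65 to 0.88, and it was -0.42 without S302A_DEN replicate 3 (limma adjusted p = 0.865 with it). Of 31-base words in the annotated Mat2a transcripts, 19.5% also occur in other genes, so part of its value could be shared. The most, 10.3%, occur in Particl, a long non-coding RNA.

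The share of Mat2a in the sum of both genes put the balance of the 2 enzymes on 1 scale. It was 4.67%, 5.10% and 15.3% in S302A_DEN replicates 1 to 3 and 10.7%, 5.88% and 7.37% in S302A_Ctrl. In wild type it was 2.83%, 4.21% and 2.92% after DEN and 5.97%, 10.8% and 5.98% in untreated livers. Mat1a transcripts exceeded Mat2a transcripts in all 12 libraries. The wild-type groups did not overlap, and the log2 ratio of Mat2a to Mat1a averaged -4.89 ± 0.33 in WT_DEN and -3.67 ± 0.53 in WT_Ctrl (SD). That difference of -1.22 gave p = 0.1 in a two-sided exact permutation test, the smallest p that 3 libraries against 3 allow. In the knock-in the ratio averaged -3.68 ± 1.05 after DEN and -3.57 ± 0.48 in untreated livers, a difference of -0.11 (exact permutation p = 0.9) that was -0.71 without S302A_DEN replicate 3 and 0.22 without S302A_DEN replicate 1. It was also above 0 without S302A_DEN replicate 2 (0.16) and without S302A_Ctrl replicate 1 (0.14).

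**Figure D2:**
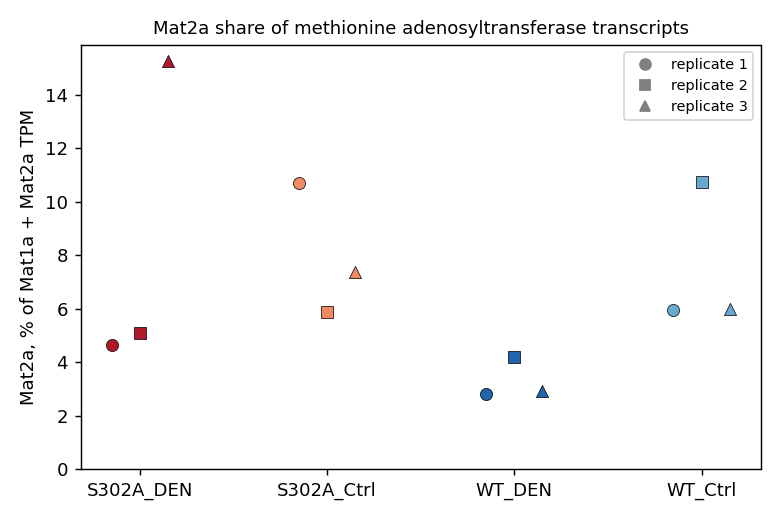
Mat2a as a percentage of the summed Mat1a and Mat2a TPM (linear axis from 0) in each library of the 4 groups, with points shaped by replicate. The 3 WT_DEN libraries lie between 2.83% and 4.21%, below all WT_Ctrl libraries, and S302A_DEN replicate 3 is highest at 15.3%.

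Among the enzymes that deal with the products of methyl transfer, Ahcy separated the DEN-treated groups. Ahcy encodes S-adenosylhomocysteine hydrolase, which splits S-adenosylhomocysteine, an inhibitor of most methyltransferases, into adenosine and homocysteine (ENSMUSG00000027597; chromosome 2, 155059310 to 155074497, minus strand). It stood at 635, 488 and 515 TPM in S302A_DEN and at 1017, 1310 and 1454 TPM in WT_DEN. Each S302A_DEN library was below each WT_DEN library. Ahcy was lower by 1.20 on the log2 scale in S302A_DEN than in WT_DEN (SE 0.21, limma adjusted p = 0.0380). Of the 9 tested members 1 passed in that comparison, and of all 12120 tested genes 0.38% passed (0.107% higher, 0.272% lower). In untreated livers Ahcy measured 623, 711 and 584 TPM in S302A_Ctrl, against 776, 531 and 650 TPM in WT_Ctrl, and they overlapped with each other. In wild type all 3 DEN libraries were above all 3 untreated ones, with a log2 change of 0.95 ± 0.21 (limma adjusted p = 0.154), which passed only without S302A_DEN replicate 3 (adjusted p = 0.0343). In the knock-in the change was -0.23 ± 0.21 (adjusted p = 0.534).

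The Ahcy call between S302A_DEN and WT_DEN ended in limma without WT_Ctrl replicate 3 (adjusted p = 0.0729), without S302A_Ctrl replicates 1, 2 and 3 (0.0753, 0.0523 and 0.0688), without WT_DEN replicates 2 and 3 (0.170 and 0.205) and without S302A_DEN replicate 2 (0.0962), and also with no filter (0.185), with median-of-ratios scaling (0.0527) and with only the 6 libraries compared (0.216). Its log2 difference stayed between -1.35 and -1.09 in the 12 fits that left out 1 library. The hepatocyte markers summed to less in each S302A_DEN library than in each WT_DEN library. The lack of overlap of this sum rested on Alb, the albumin gene, but Alb was not the only marker that stood lower. Alb measured 26444, 32859 and 33122 TPM in S302A_DEN, with 51258, 46307 and 56369 TPM in WT_DEN. Without Alb, a choice made after seeing the values, the sums of the other 10 markers overlapped (22792 to 39839 TPM in S302A_DEN, 32455 to 38826 TPM in WT_DEN). Among them, Ttr, Ass1 and Hpd were each lower in S302A_DEN without overlap, as were 6.19% of all genes, and the rest overlapped. Ttr measured 8717, 6779 and 4894 TPM in S302A_DEN, with 10650, 9263 and 10622 TPM in WT_DEN. Of the 6 cholangiocyte markers, Spp1 measured 59.0, 55.3 and 122 TPM in S302A_DEN, with 19.4, 16.9 and 25.9 TPM in WT_DEN, and Sox9 measured 4.24, 2.35 and 13.3 TPM, with 1.68, 1.19 and 1.37 TPM in WT_DEN. Krt7 and Cldn4 were at the floor in all of these libraries, and Krt19 and Epcam in all but S302A_DEN replicate 3. The part of these markers in the Ahcy difference was not tested. In bulk liver, fewer cells of a type and less RNA per cell cannot be told apart. Of 31-base words in annotated Ahcy transcripts, 71.4% also occur in other genes, with 68.7% in Gm4737, a retrogene that is not analysed here. Reads of Ahcy and such genes could have been split or joined in counting, and the Ahcy value is uncertain to that extent.

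Bhmt, which encodes betaine-homocysteine methyltransferase and returns homocysteine to methionine with a methyl group from betaine, varied widely between replicates. It measured 2091, 1201 and 1056 TPM in S302A_DEN, with 653, 1855 and 745 TPM in S302A_Ctrl. It measured 3112, 1606 and 3132 TPM in WT_DEN, with 2029, 1768 and 1175 TPM in WT_Ctrl. The groups overlapped in all 4 comparisons of 2 groups. The log2 difference between S302A_DEN and WT_DEN was -0.85 with a 95% interval from -1.77 to 0.06 (limma adjusted p = 0.685). Of the annotated Bhmt words 30.3% also occur in other genes, with 27.1% in a retrogene, Gm5096, so this value is uncertain in the same way.

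Cbs encodes cystathionine beta-synthase, which commits homocysteine to cysteine synthesis. Its group means were 208 ± 25.8 TPM in S302A_DEN, 187 ± 33.8 in S302A_Ctrl, 204 ± 70.7 in WT_DEN and 214 ± 35.2 in WT_Ctrl (SD, n = 3 libraries each). Its largest log2 difference in the 4 comparisons of 2 groups was -0.20 (S302A_Ctrl against WT_Ctrl), with a 95% interval from -0.72 to 0.33. The intervals of the other 3 ran from -0.63 at the lowest to 0.69 at the highest.

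**Figure D3:**
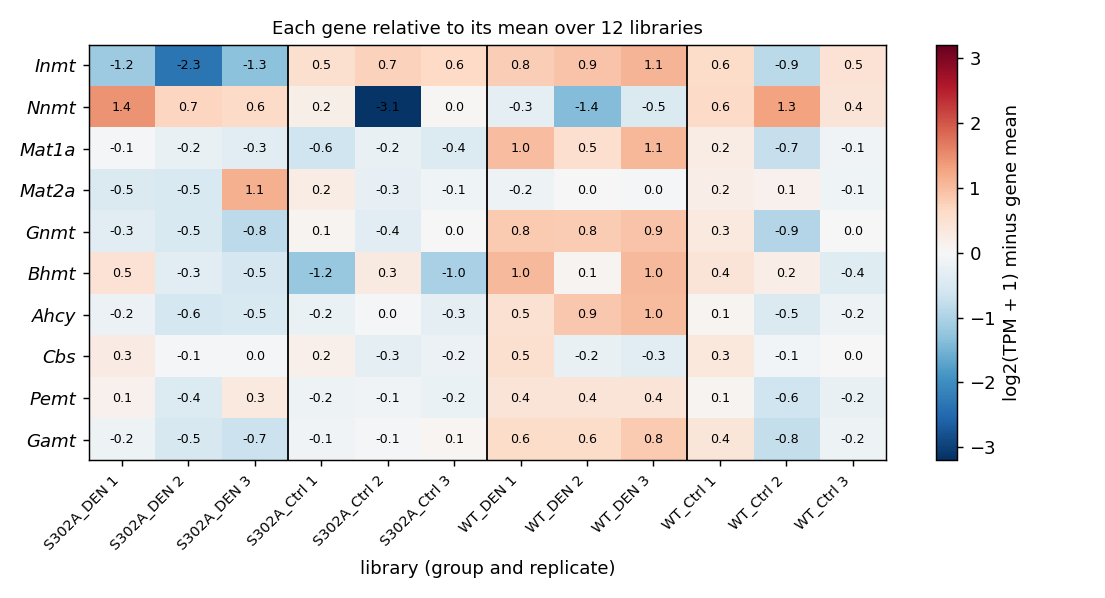
Log2(TPM + 1) of each gene minus its mean over the 12 libraries (colour and printed value), with genes in rows and libraries in columns by group and replicate. Inmt, Mat1a, Gnmt, Ahcy, Pemt and Gamt are above their mean in all 3 WT_DEN libraries and below it in WT_Ctrl replicate 2.

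Gnmt encodes glycine N-methyltransferase, the abundant liver enzyme that disposes of surplus S-adenosylmethionine by making sarcosine (ENSMUSG00000002769; chromosome 17, 46725664 to 46729168, minus strand). It measured 1028, 920 and 723 TPM in S302A_DEN, with 1384, 1002 and 1287 TPM in S302A_Ctrl. In WT_DEN it stood at 2333, 2293 and 2463 TPM, the closest replicates it had in any group, and in WT_Ctrl at 1613, 674 and 1314 TPM. The WT_DEN libraries lay above all 9 others. The log2 difference between S302A_DEN and WT_DEN was -1.42 ± 0.29 (limma adjusted p = 0.0632), that of DEN in wild type 1.07 ± 0.29 (adjusted p = 0.255) and that of DEN in the knock-in -0.46 ± 0.29 (adjusted p = 0.408). The difference between S302A_DEN and WT_DEN passed without WT_Ctrl replicate 2 (adjusted p = 0.0210), without S302A_DEN replicate 3 (0.0353) and with a filter of 5 TPM in 3 libraries (0.0453).

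Gamt encodes guanidinoacetate methyltransferase, which makes creatine (ENSMUSG00000020150; chromosome 10, 80258151 to 80261012, minus strand). It measured 163, 128 and 114 TPM in S302A_DEN, with 171, 177 and 193 TPM in S302A_Ctrl. It measured 275, 275 and 330.4 TPM in WT_DEN, with 241, 109 and 163 TPM in WT_Ctrl. S302A_DEN was below S302A_Ctrl without overlap, and WT_DEN was above WT_Ctrl without overlap. The log2 difference between S302A_DEN and WT_DEN was -1.13 ± 0.26 (limma adjusted p = 0.0965), which passed without WT_Ctrl replicate 2 (adjusted p = 0.0497) and without S302A_DEN replicate 3 (0.0489). The DEN changes were -0.43 ± 0.26 in the knock-in (adjusted p = 0.391) and 0.84 ± 0.26 in wild type (adjusted p = 0.315).

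Pemt encodes phosphatidylethanolamine N-methyltransferase, which makes phosphatidylcholine. It measured 392, 261 and 443.6 TPM in S302A_DEN, with 320, 330.03 and 308 TPM in S302A_Ctrl. It measured 474, 477 and 477 TPM in WT_DEN, with 376, 229 and 301.9 TPM in WT_Ctrl. The DEN-treated groups did not overlap but lay close: the highest S302A_DEN library was at 443.6 TPM and the lowest WT_DEN library at 474 TPM, and the log2 difference of the groups was -0.41 ± 0.23 (limma adjusted p = 0.728). WT_DEN was above WT_Ctrl without overlap, with a log2 change of 0.68 ± 0.23 (adjusted p = 0.394).

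Nnmt encodes nicotinamide N-methyltransferase, which methylates nicotinamide and thereby draws on both S-adenosylmethionine and the NAD precursor pool (ENSMUSG00000032271; chromosome 9, 48591877 to 48605153, minus strand). It measured 144, 85.4 and 80.3 TPM in S302A_DEN, with 59.7, 5.08 and 54.0 TPM in S302A_Ctrl. In wild type the order was the other way: 42.3, 19.3 and 37.8 TPM in WT_DEN and 80.7, 128 and 70.4 TPM in WT_Ctrl. Neither pair overlapped. The log2 change with DEN was 1.88 ± 0.69 in the knock-in (limma adjusted p = 0.227) and -1.49 ± 0.69 in wild type (adjusted p = 0.610), and the difference of these changes was 3.37 ± 0.98 (adjusted p = 0.489). Without S302A_Ctrl replicate 2, which was at 5.08 TPM, the knock-in change was 0.80 and the difference 2.29. Between S302A_DEN and WT_DEN the log2 difference was 1.63 ± 0.69 (adjusted p = 0.556), and between the untreated groups it was -1.74 ± 0.69 (adjusted p = 1), with each S302A_Ctrl library below each WT_Ctrl library, and -0.66 without S302A_Ctrl replicate 2.

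Inmt encodes indolethylamine N-methyltransferase, which methylates tryptamine and related amines (ENSMUSG00000003477; chromosome 6, 55170626 to 55175043, minus strand). It measured 161, 70.0 and 144 TPM in S302A_DEN, with 514, 602 and 557 TPM in S302A_Ctrl, the values that chose it. The ratio of the mean TPM was 0.224, and the log2 difference was -2.23, which ranged from -2.46 to -1.87 as single libraries were left out. After DEN, wild-type livers held 619, 679 and 767 TPM, so that S302A_DEN was at 0.181 of the WT_DEN mean with a log2 difference of -2.53. WT_Ctrl held 544, 198 and 499.98 TPM, and its replicate 2 was the only library outside S302A_DEN below 499.98 TPM. For DEN in wild type, each WT_DEN library was above each WT_Ctrl library, and the log2 change was 0.86 ± 0.37, which did not pass (limma adjusted p = 0.564). The estimate of 0.86 uses none of the libraries that chose Inmt. Its SE and p are not free of them, because all 12 libraries share the estimate of the spread. With only the 6 libraries compared, the limma adjusted p was 0.217. The log2 change was 0.39 without WT_Ctrl replicate 2. Inmt and Nnmt had opposite orders of the DEN and untreated libraries within each genotype.

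**Figure D4:**
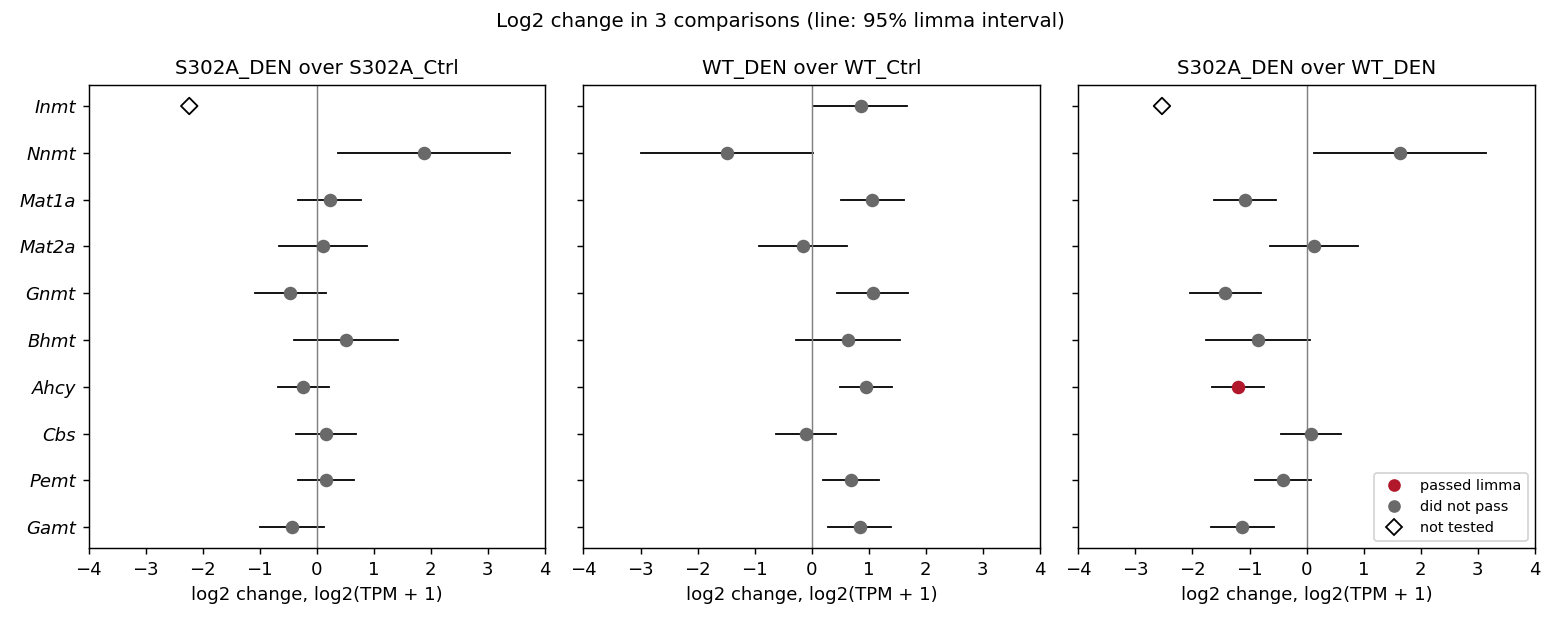
Log2 change of each gene on the log2(TPM + 1) scale in 3 comparisons, with points at the limma estimate and lines at the 95% interval; open diamonds are Inmt values with no test. Ahcy alone passed, between S302A_DEN and WT_DEN at -1.20. For DEN in wild type 7 of the 10 genes lie above 0, as do 70.3% of all tested genes.

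Counted over the set, the comparisons differed as follows. For DEN in the knock-in, 0 of the 9 tested members passed limma, where 0.619% of all 12120 tested genes passed (0.421% higher, 0.198% lower), and 1 of the 9 had an unadjusted p below 0.05, where 16.4% of all genes did. Their median log2 change was 0.16 and that of all genes 0.27. Nnmt was higher without overlap, as were 15.8% of all genes, and Gamt was lower without overlap, as were 2.68%. For DEN in wild type, 0 of 10 passed, where 0.132% of all genes passed (0.116% higher, 0.0165% lower), and 6 of 10 had an unadjusted p below 0.05 (8.26% of all genes). The members' median was 0.76 and that of all genes 0.13. There, 6 of 10 were higher without overlap (21.7% of all genes) and 1 of 10, Nnmt, was lower without overlap (3.21%). Without S302A_DEN replicate 3, 2 of 10 passed (Mat1a and Ahcy), where 258 of all genes passed, against 16 with all libraries. The hepatocyte marker sum was also higher without overlap, with Alb as its most abundant gene, and its part was not tested.

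Between S302A_DEN and WT_DEN, 6 of the 9 tested members stood lower, 5 of them without overlap (6.19% of all genes), Nnmt stood higher without overlap (3.23%), and 5 of 9 had an unadjusted p below 0.05 (7.83% of all genes). The members' median log2 difference was -0.85, against 0.07 for all genes, of which 60.1% were above 0. Without S302A_DEN replicate 3 the count that passed was 4 (Ahcy, Gnmt, Mat1a and Gamt), where 700 of all genes passed, against 46 with all libraries. Without WT_Ctrl replicate 2 the members' count was 3 and that of all genes 44. The members' count was 0 without WT_DEN replicate 2 or 3, S302A_DEN replicate 2, WT_Ctrl replicate 3 or any 1 of the S302A_Ctrl replicates. This comparison shares S302A_DEN with the DEN comparison in the knock-in and WT_DEN with that in wild type.

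Between the untreated groups, 0 of 9 passed (0.033% of all genes did, 0.0165% higher and 0.0165% lower). Nnmt was the 1 of 9 lower without overlap (5.27% of all genes), 0 of 9 were higher without overlap (1.69%), and Nnmt alone had an unadjusted p below 0.05 (1.48% of all genes). For the difference between the DEN changes of the genotypes, 0 of 9 passed (0.0413% of all genes did, 0.0248% higher and 0.0165% lower), while 5 of 9 had an unadjusted p below 0.05 (5.06% of all genes): Nnmt at 3.37, Gnmt at -1.53, Gamt at -1.28, Ahcy at -1.18 and Mat1a at -0.84 on the log2 scale. Their adjusted p ran from 0.380 to 0.872. For the DEN effect averaged over genotypes, 0 of 9 passed (1.34% of all genes did, 1.05% higher and 0.289% lower) and 3 of 9 had an unadjusted p below 0.05 (19.4%), with Mat1a at 0.65 ± 0.18 (limma adjusted p = 0.0945).

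Further genes of these pathways were taken from 6 lists written from textbook knowledge, with 84 of 90 genes tested. Of 12 genes of the methionine cycle and betaine use, 1 passed, downward, between S302A_DEN and WT_DEN, where 0.38% of all genes passed (0.272% lower). Sardh, the sarcosine dehydrogenase that demethylates the product of the Gnmt enzyme, stood at 135, 106 and 123 TPM in S302A_DEN and at 211, 223 and 253 TPM in WT_DEN. Untreated livers held 127, 154 and 164 TPM in S302A_Ctrl and 160, 150 and 152 TPM in WT_Ctrl. Its log2 change with DEN was -0.28 ± 0.17 in the knock-in (limma adjusted p = 0.396) and 0.57 ± 0.17 in wild type (adjusted p = 0.312). Between S302A_DEN and WT_DEN its log2 difference was -0.91 ± 0.17 (SE, limma adjusted p = 0.0477). That call held without S302A_DEN replicate 3 (adjusted p = 0.0101) and ended without each of the other 11 libraries (0.0572 to 0.293), with no filter (0.0998), with scaling (0.0660) and with only the 6 libraries compared (0.408).

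Of 15 genes of polyamine synthesis and methionine salvage, Srm passed, upward, in the averaged DEN effect, where 1.34% of all genes passed (1.05% higher). Srm encodes spermidine synthase, which uses decarboxylated S-adenosylmethionine. It measured 31.9, 23.1 and 57.3 TPM in S302A_DEN, with 14.5, 15.7 and 15.8 TPM in S302A_Ctrl. It measured 26.2, 22.9 and 26.5 TPM in WT_DEN, with 15.5, 12.7 and 14.8 TPM in WT_Ctrl. Each DEN library was above each untreated library, and Srm rose by 0.96 ± 0.19 (limma adjusted p = 0.0392). Its call held without S302A_DEN replicate 2 or 3 (adjusted p = 0.00975 and 0.00617) and ended without each of the other 10 libraries (0.0659 to 0.109) and with no filter (0.189).

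Among the other small-molecule methyltransferases, 1 of 10 passed for DEN in the knock-in, where 0.619% of all genes passed: As3mt, which methylates arsenite. It measured 17.8, 29.0 and 52.9 TPM in S302A_DEN, with 3.30, 11.1 and 5.45 TPM in S302A_Ctrl, and rose by 2.17 ± 0.43 (limma adjusted p = 0.0432). In wild type As3mt stood at 18.2, 18.9 and 23.1 TPM after DEN and at 26.0, 20.6 and 12.4 TPM in untreated livers, so the S302A_Ctrl libraries were the low ones. The As3mt call held without S302A_Ctrl replicate 2 or any 1 of the S302A_DEN replicates (adjusted p = 0.0289 to 0.0485) and ended without each of the other 8 libraries (0.0516 to 0.205), with no filter (0.315) and with only the 6 libraries compared (0.177).

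In the nicotinamide and NAD list, 1 of 18 genes passed for DEN in the knock-in (0.619% of all genes did). It was Acmsd, whose enzyme diverts tryptophan breakdown away from NAD synthesis. It measured 11.3, 19.8 and 29.97 TPM in S302A_DEN, with 5.67, 5.48 and 2.90 TPM in S302A_Ctrl, and rose by 1.85 ± 0.37 (limma adjusted p = 0.0486). Acmsd stood at 7.57, 9.11 and 7.62 TPM in WT_DEN and at 6.44, 15.99 and 9.12 TPM in WT_Ctrl, which overlapped. Its call held without WT_Ctrl replicate 2 and without S302A_DEN replicate 1 or 2 (adjusted p = 0.0443, 0.0278 and 0.0486) and ended without each of the other 9 libraries (0.0508 to 0.214), with no filter (0.304) and with only the 6 libraries compared (0.177). Beside the As3mt and Acmsd changes, Spp1 (59.0, 55.3 and 122 TPM in S302A_DEN, 17.1, 13.7 and 14.9 TPM in S302A_Ctrl) and Sox9 of the cholangiocyte list and Tff3, Afp and Ly6d of the tumour and fetal liver list were also higher without overlap. Of all tested genes, 15.8% were higher without overlap in that comparison. Gpc3 and Golm1 of the tumour and fetal liver list overlapped. Tff3 measured 36.5, 46.6 and 264 TPM in S302A_DEN and was at the floor in S302A_Ctrl. Without Tff3, a choice made after seeing the values, the sum of the other 7 tumour and fetal liver markers overlapped (10.6 to 764 TPM in S302A_DEN, 9.48 to 12.3 TPM in S302A_Ctrl), and Nqo1 was lower in S302A_DEN replicates 1 and 2 (2.34 and 1.79 TPM) than in S302A_Ctrl (3.40 to 5.40 TPM). Krt7, Cldn4, H19 and Igf2 were at the floor in all S302A_DEN libraries. The part of these markers was not tested.

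In limma 0 of 18 folate genes and 0 of 11 genes of transsulfuration and cysteine use passed in any of the 6 comparisons. At an unadjusted p below 0.05 in limma there were 0 to 6 of the folate genes and 0 to 3 of the cysteine genes in a comparison. The share of all genes ran from 1.48% (untreated groups) to 19.4% (averaged DEN effect). The most of both lists were between S302A_DEN and WT_DEN, where 7.83% of all genes were. The folate genes with the smallest unadjusted p were Fpgs, which adds glutamate tails to folate, Shmt1, a serine hydroxymethyltransferase, and Mthfd2, a mitochondrial folate enzyme of dividing cells. For DEN in wild type, Fpgs had a log2 change of 0.90 ± 0.25 (unadjusted p = 0.00346, adjusted p = 0.262) and Shmt1 0.96 ± 0.27 (unadjusted p = 0.00370, adjusted p = 0.268) in limma. Mthfd2 stood at 3.12, 2.06 and 15.1 TPM in S302A_DEN and at 1 TPM in all S302A_Ctrl libraries, with the highest value in S302A_DEN replicate 3. For DEN in wild type, Fpgs and Shmt1 passed with only the 6 libraries compared (limma adjusted p = 0.0293 and 0.0315), and Shmt1 also without S302A_DEN replicate 3 (0.0421). For DEN in the knock-in, Mthfd2 passed with scaling (0.0298), without S302A_DEN replicate 2 (0.0333) and without replicate 3 (0.0107). In the cysteine list, Tst and Mpst, a pair of sulfurtransferases, had log2 changes of 0.60 ± 0.20 and 0.54 ± 0.20 for DEN in wild type (limma adjusted p = 0.396 and 0.473). Csad, an enzyme of taurine synthesis, had 1.20 ± 0.46 for DEN in the knock-in (adjusted p = 0.247) and 335 TPM in S302A_DEN replicate 3, against 134 and 71.2 TPM in the other S302A_DEN replicates. It passed without S302A_DEN replicate 2 (limma adjusted p = 0.0490).

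For DEN in wild type the median log2 changes of the 6 lists were 0.33 for the methionine cycle list (11 of 12 genes above 0), 0.22 for folate, 0.35 for cysteine, 0.12 for polyamines, 0.20 for the other methyltransferases and 0.19 for NAD, against 0.13 for all genes. Of all tested genes, 70.3% were above 0 in that comparison. Between S302A_DEN and WT_DEN the medians were -0.07, -0.16 (14 of 18 genes below 0), -0.07, 0.13, -0.16 and -0.21 (13 of 18 genes below 0) in the same order, against 0.07 for all genes. There, 60.1% of all tested genes were above 0.

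Likeness to Inmt over the 12 libraries was measured as the root-mean-square difference of log2(TPM + 1) after each gene was centred on its mean, among 7357 genes with a mean of at least 5 TPM. This is a description, and the points share libraries. The nearest profiles were those of the carboxylesterase gene Ces1f (0.515), of Cryl1 (0.53), of the carboxylesterase gene Ces1e (0.54), of Acaa1b (0.59), a peroxisomal thiolase gene, and of Etnppl (0.61), where a flat gene would score 1.07. Ces1f averaged 92.4 TPM in S302A_DEN, 272 in S302A_Ctrl, 312 in WT_DEN and 344 in WT_Ctrl, and Ces1 paralogs share sequence, so single Ces1 values are uncertain. Within the set Gnmt ranked 45 (0.73), Gamt 54 (0.75) and Ahcy 112 (0.80 log2 units), while Nnmt ranked 7291. Nearest to Nnmt were Orm2 (0.79), an acute phase protein gene, the glutathione transferase genes Gstp2 (0.82) and Gstp1 (0.85), which are close paralogs, the small heat shock protein gene Hspb1 (0.91), and AK028224 (0.92), where a flat gene would score 1.20.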

How the data were processed

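Bulk RNA sequencing of 12 mouse liver libraries was analysed. Per the labels' protocols, total RNA was isolated with an RNeasy Plus kit and TruSeq libraries were read on a HiSeq instrument. Per the submitters' processing notes, kallisto was used with build mm10; its version and the annotation are not given in the sources used here. The deposited values are TPM per gene symbol, and the authors' tables hold nothing below 1, which was read as a floor. TPM keeps no depth, so counting precision is unknown.

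From these, log2(TPM + 1) was fitted in limma 3.58.1 (R 4.3.3), with 1 model of the 4 groups, moderation with a mean-variance trend and 8 residual degrees of freedom. Genes above 1 TPM in at least 3 of the 12 libraries were kept. Fold changes on this scale understate changes of low genes. Tests were two-sided, adjusted by Benjamini-Hochberg over all 12120 genes, with a threshold of 0.05. The fit was tested on simulated data. The ratio of Mat2a to Mat1a was compared by an exact permutation test. Alternatives were a pseudocount of 0.1, no filter, a filter of 5 TPM, median-of-ratios scaling (values at the floor left there), the libraries of a comparison alone, a replicate block and each library left out; where that left 2 libraries in a group, all groups shared 1 estimate of the spread. Gene positions are from GENCODE M21. Named genes are the 10 members, the pathway genes that passed or else the 3 with the smallest unadjusted p per list, and the 5 profiles nearest to Inmt and to Nnmt. Of the listed pathway and marker genes, 3 pathway genes and the macrophage marker Adgre1 (as Emr1) were found under an older symbol. One pathway gene of the lists is not reported here. The members and lists were chosen with earlier results of these data known.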

Additional observations from a re-analysis of the deposited data

How the results depend on the processing

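With 3 libraries a group and unknown depth, precision is limited. The log2 change of Inmt with DEN in the knock-in and its difference after DEN kept their sign in every alternative run. Inmt was chosen by its low values in S302A_DEN, which both use, so the kept sign is a description and no support. A p that missed the threshold does not show that values did not differ.

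The counts of all genes that passed, moved as follows. For DEN in the knock-in, 75 passed (51 up, 24 down), 4 with no filter, 132 with the filter of 5 TPM, 679 (324 up, 355 down) with median-of-ratios scaling, 17 with the libraries of the comparison alone and 16 to 335 with single libraries left out. For DEN in wild type, 16 passed (14 up, 2 down), 1 with no filter, 25 (16 up, 9 down) with scaling, 147 with its libraries alone, 5 with a replicate block and 1 to 258 with single libraries left out. For S302A_DEN against WT_DEN, 46 passed, 9 with no filter, 210 with scaling, 4 with its libraries alone and 6 to 700 with single libraries left out. For the untreated groups, 4 passed, 0 with no filter, 2 with their libraries alone and 0 to 12 with single libraries left out. For the difference of DEN changes, 5 passed (3 up, 2 down), 13 (4 up, 9 down) with scaling and 2 to 75 with single libraries left out. For the averaged DEN effect, 162 passed (127 up, 35 down), 2 with no filter, 726 (332 up, 394 down) with scaling, 87 with a replicate block and 17 to 1037 with single libraries left out.

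Of the 9 tested members, 1 passed between S302A_DEN and WT_DEN; the count was 0 with no filter, 0 with scaling (Ahcy adjusted p = 0.0527), 0 with its libraries alone (0.216), 0 with a replicate block (0.0597), 2 with the filter of 5 TPM and 0 to 4 with single libraries left out. For DEN in wild type the members' count was 0 to 2, and for the averaged DEN effect 0 to 1 (Pemt, adjusted p = 0.0421 without S302A_DEN replicate 2).

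Scaling moved the median log2 change of all genes, to 0.01 from 0.27 for DEN in the knock-in, to -0.01 from 0.13 for DEN in wild type, to 0.02 from 0.14 for the difference of DEN changes and to 0.01 from 0.21 for the averaged DEN effect, and turned the sign of small changes: Mat1a -0.0915, Mat2a -0.20, Cbs -0.15 and Pemt -0.15 in the knock-in, Ahcy 0.073 between the untreated groups, and Nnmt -0.043, Cbs -0.22 and Gamt -0.0415 in the average. Leaving out single libraries turned the sign of Mat2a for DEN in the knock-in (-0.42 to 0.39), after DEN (-0.40 to 0.41), in the difference of DEN changes (-0.27 to 0.54) and in the average (-0.28 to 0.12). It did so for Cbs for DEN in wild type (-0.37 to 0.052), after DEN (-0.082 to 0.34) and in the average (-0.10 to 0.11), for Bhmt in the difference (-0.43 to 0.36) and for Nnmt in the average (-0.34 to 0.49). Between the untreated groups it did so for Gnmt (-0.26 to 0.37), Ahcy (-0.16 to 0.12), Pemt (-0.078 to 0.28) and Gamt (-0.14 to 0.43). The log2 ratio of Mat2a to Mat1a for DEN in the knock-in ran from -0.71 to 0.22. The cause was not tested.

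The labels do not say that equal replicate numbers mark a shared animal or batch. Deviations of same-numbered libraries correlated at -0.108 to 0.282 across genes, in no comparison above 0.1 for all 3 numbers. Those of unlike numbers correlated at -0.230 to 0.185. With 3 libraries a group these correlations cannot settle whether the numbers mark a batch. With the replicate block the calls of Ahcy (adjusted p = 0.0597, S302A_DEN against WT_DEN), Sardh (adjusted p = 0.0692), As3mt (0.0605) and Acmsd (0.0581) did not pass.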

Other observations

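Zonal markers gave a further view of the same livers. The 8 periportal markers summed to 1716 to 3321 TPM in S302A_DEN and 2974 to 3714 TPM in S302A_Ctrl, and to 3096 to 4044 TPM in WT_DEN and 3150.4 to 3779 TPM in WT_Ctrl. The 8 pericentral markers summed to 3891 to 6611 TPM in S302A_DEN and 5297 to 5984 TPM in S302A_Ctrl, and to 4939 to 6883 TPM in WT_DEN and 4868 to 6836 TPM in WT_Ctrl. Both sums overlapped between the groups of each comparison, but single markers did not all overlap. In S302A_DEN replicate 3 the pericentral sum held Cyp1a2 at 3492.5 TPM, against 357 and 333 TPM in S302A_DEN replicates 1 and 2. Relative to S302A_Ctrl, pericentral Cyp2e1, Oat and Slc1a2 and periportal Hal, Gls2 and Cyp2f2 were lower in S302A_DEN without overlap, as were 2.68% of all genes. Pericentral Glul, Axin2 and Rhbg were higher without overlap, as were 15.8% of all genes, and the remaining zonal markers overlapped.

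Macrophage markers summed to 71.6 to 383 TPM in S302A_DEN, 109 to 183 in S302A_Ctrl, 82.3 to 160 in WT_DEN and 76.0 to 185 in WT_Ctrl.

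Within WT_Ctrl, replicate 2 was below both other replicates for 7 of the 10 genes, where 42.1% of all tested genes were. Within S302A_DEN, replicate 3 was below both others for 5 of the 10 genes, where 5.21% of all tested genes were, and above both for 2, where 87.0% were. Replicate 1 of S302A_DEN was above both others for 8 of the 10 genes, where 8.17% of all tested genes were. Within WT_DEN, replicate 3 was above both others for 7 of the 10 genes, where 22.6% of all tested genes were.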
